A study of Mus musculus with 9 samples.

Results

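Heat shock proteins and chaperonins are the proteins that fold, refold, assemble and hold other proteins in a cell. They were taken here as every gene row whose symbol begins with Hspa, Hspb, Hspd, Hspe, Hsph or Hsp90, with Dnaja, Dnajb or Dnajc and a digit, or with Cct and a digit, plus Tcp1. The rule gave 84 of 24391 gene rows, of which 71 were abundant enough to test among 12573 tested genes and 3 (Dnajc22, Dnajc5g and Hspb7) had no read in any library. The other 10 (Cct8l1, Dnajb3, Dnajb8, Dnajc5b, Hspa12a, Hspa1a, Hspb1, Hspb2, Hspb3 and Hspb8) had too few reads to test. The cells were bone marrow cells of C57BL/6 mice, 6 to 8 weeks old, with leukaemia driven by AML1-ETO9a, a truncated form of the fusion protein made by the t(8;21) translocation. They had been sorted on CD43 (leukosialin, gene Spn) and c-Kit (the stem cell factor receptor, gene Kit) into CD43++ckit+, CD43+ckit- and CD43-ckit- populations, with 3 RNA-seq libraries each. All 3 populations came from leukaemic marrow, and normal marrow was not analysed here. The labels do not say that the libraries are from different mice. The p-values therefore rest on the spread among these libraries, which may be technical.

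Deposited counts per library summed to between 17966197 and 31781746. Values are given as CPM, counts scaled to a common library size, after TMM scaling, which corrects for library composition with factors from 0.589 to 1.41. Each list of 3 values runs over replicate libraries 1, 2 and 3. The RNA of both sorting antigens was highest in CD43++ckit+ cells. Kit had 176, 171 and 146 CPM in CD43++ckit+ cells, 7.80, 18.4 and 21.0 CPM in CD43+ckit- cells and 18.9, 41.3 and 42.1 CPM in CD43-ckit- cells. Spn had 555, 520.3 and 432 CPM in CD43++ckit+ cells, 137, 232 and 213 CPM in CD43+ckit- cells and 71.7, 175 and 180.1 CPM in CD43-ckit- cells. Kit was not lowest in CD43-ckit- cells, and Spn overlapped between the c-Kit-negative populations. Genes of other cell types differed between the populations. The summed CPM of 8 tested erythroid genes was 1175, 1093 and 2022 in CD43++ckit+ cells, 15411, 16295 and 13379 in CD43+ckit- cells and 53751, 37750.3 and 34894 in CD43-ckit- cells, with all 8 lower in CD43++ckit+ cells than in either other population. The globin row Hbb-b1 was at 0 in every library and Hba-a1 had at most 4 counts. The summed CPM of 10 neutrophil genes was 371, 101 and 6371 in CD43++ckit+ cells, 519, 3405 and 2710.3 in CD43+ckit- cells and 4239, 16039 and 16678 in CD43-ckit- cells, and CD43++ckit+ library 3 stood apart from libraries 1 and 2. None of the 10 was called in CD43++ckit+ cells against either other population. Sums for other cell types were also taken, for macrophage genes (13.2 to 92.4 in CD43++ckit+ cells, 13.6 to 36.0 in CD43+ckit- cells and 127 to 166 in CD43-ckit- cells) and B-lineage genes (3.47 to 22.9, 13.5 to 40.8 and 78.5 to 210.2). The same was done for T and NK cell genes (5.01 to 24.2, 29.1 to 33.6 and 32.3 to 45.9) and megakaryocyte genes (7.58 to 11.9, 34.9 to 42.7 and 44.6 to 68.1, in the same order). Lck alone made up most of the T and NK sum in CD43+ckit- cells, with 28.4, 27.3 and 23.5 CPM. Of the 7 T and NK genes, Lck was called higher in CD43+ckit- cells than in CD43-ckit- cells (log2 fold change 1.34), and 3 were called lower. The part of these other cell types in the chaperone results was not tested, and in sorted bulk RNA fewer cells of a type and less RNA per cell cannot be told apart.

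Chaperones work as relays. HSP70 proteins bind stretches of unfolded chain in a cycle driven by ATP, J-domain proteins (the DNAJ families) bring clients and trigger the ATP hydrolysis, and HSP110 proteins exchange the nucleotide. HSP90 acts later, on kinases, receptors and other clients that are close to folded. The chaperonins are closed chambers: the CCT ring in the cytosol folds actin, tubulin and many other proteins, and HSP60 with its lid HSP10 does so in the mitochondrial matrix, while the endoplasmic reticulum (ER) has its own HSP70, HSP90 and J-domain proteins. Transcription of many cytosolic members is raised by heat shock factor 1 and of many ER members by the unfolded protein response.

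Across the 71 tested members, more were higher than lower in CD43++ckit+ cells. Against CD43+ckit-, 26 were higher and 15 lower, so that 57.7% were called, where 39.8% of all tested genes were. Higher members made up 36.6% of the tested ones, beside 19.7% of all tested genes, and lower members 21.1%, beside 20.1%. Called means an adjusted p under 0.05 in edgeR's quasi-likelihood test with Benjamini-Hochberg adjustment over all tested genes, and every log2 fold change below is from that fit with its standard error (SE). Against CD43-ckit-, 37 members were higher and 16 lower in CD43++ckit+ cells, or 74.6% called, beside 67.4% of all tested genes (39.7% higher and 27.7% lower). Between the c-Kit-negative populations, 28 members were higher and 14 lower in CD43+ckit- cells than in CD43-ckit- cells, or 59.2% called, beside 51.9% of all tested genes (31.0% higher and 20.9% lower). The median log2 fold change of the members was 0.25 for CD43++ckit+ versus CD43+ckit- cells, beside 0.01 over all tested genes. It was 0.62 for CD43++ckit+ versus CD43-ckit- cells, beside 0.19, and 0.23 for CD43+ckit- versus CD43-ckit- cells, beside 0.13. Of the members, 21 were higher in CD43++ckit+ cells than in both other populations, 12 were lower than in both, and 2 (Dnajc16 and Hspa4) were called in opposite directions in these comparisons. The matching shares of all tested genes were not computed for these sets. In the joint test of all 3 populations 61 members (85.9%) were called, beside 74.8% of all tested genes.

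These counts depended on the scaling. With library totals in place of TMM the median log2 fold change of all genes moved by 0.26 for CD43++ckit+ versus CD43+ckit- cells, 0.91 for CD43++ckit+ versus CD43-ckit- cells and 0.64 for CD43+ckit- versus CD43-ckit- cells, and every fold change here is relative to the TMM scale. Of all called genes, 58.9% were higher in CD43++ckit+ cells than in CD43-ckit- cells with TMM, 82.2% with library totals and 49.5% with DESeq2 size factors. Members called in that comparison were 52 higher and 8 lower with library totals, and 30 higher and 19 lower with DESeq2 size factors. For CD43++ckit+ versus CD43+ckit- cells they were 33 higher and 13 lower with library totals, and 25 and 17 with DESeq2 size factors, where all called genes were 67.0% and 45.0% higher, against 49.4% with TMM. For CD43+ckit- versus CD43-ckit- cells they were 42 higher and 8 lower with library totals, and 21 and 19 with DESeq2 size factors, where all called genes were 85.2% and 45.8% higher, against 59.7% with TMM. Without CD43++ckit+ library 3, 29 members were higher and 15 lower in CD43++ckit+ cells than in CD43+ckit- cells, and 38 higher and 15 lower than in CD43-ckit- cells. Of all 12795 genes tested in that fit, 5919 were called (2935 higher) in the first comparison and 9534 (5241 higher) in the second.

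The members called in CD43++ckit+ cells against both other populations were grouped by family. The 21 higher ones held 7 of the 8 CCT ring genes, both mitochondrial chaperonin genes, the mitochondrial HSP70 Hspa9, the HSP70 genes Hspa13 and Hspa14, the HSP90 genes Hsp90aa1 and Hsp90b1, and Dnaja3, Dnajc1, Dnajc2, Dnajc13, Dnajc21, Dnajc25 and Dnajc27. The 12 lower ones held 7 genes of the J-domain B family (Dnajb1, Dnajb2, Dnajb4, Dnajb6, Dnajb9, Dnajb12 and Dnajb13), Dnaja4, Dnajc8, Dnajc28, the small heat shock protein gene Hspb6, and Hspbap1.

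**Figure D1:**
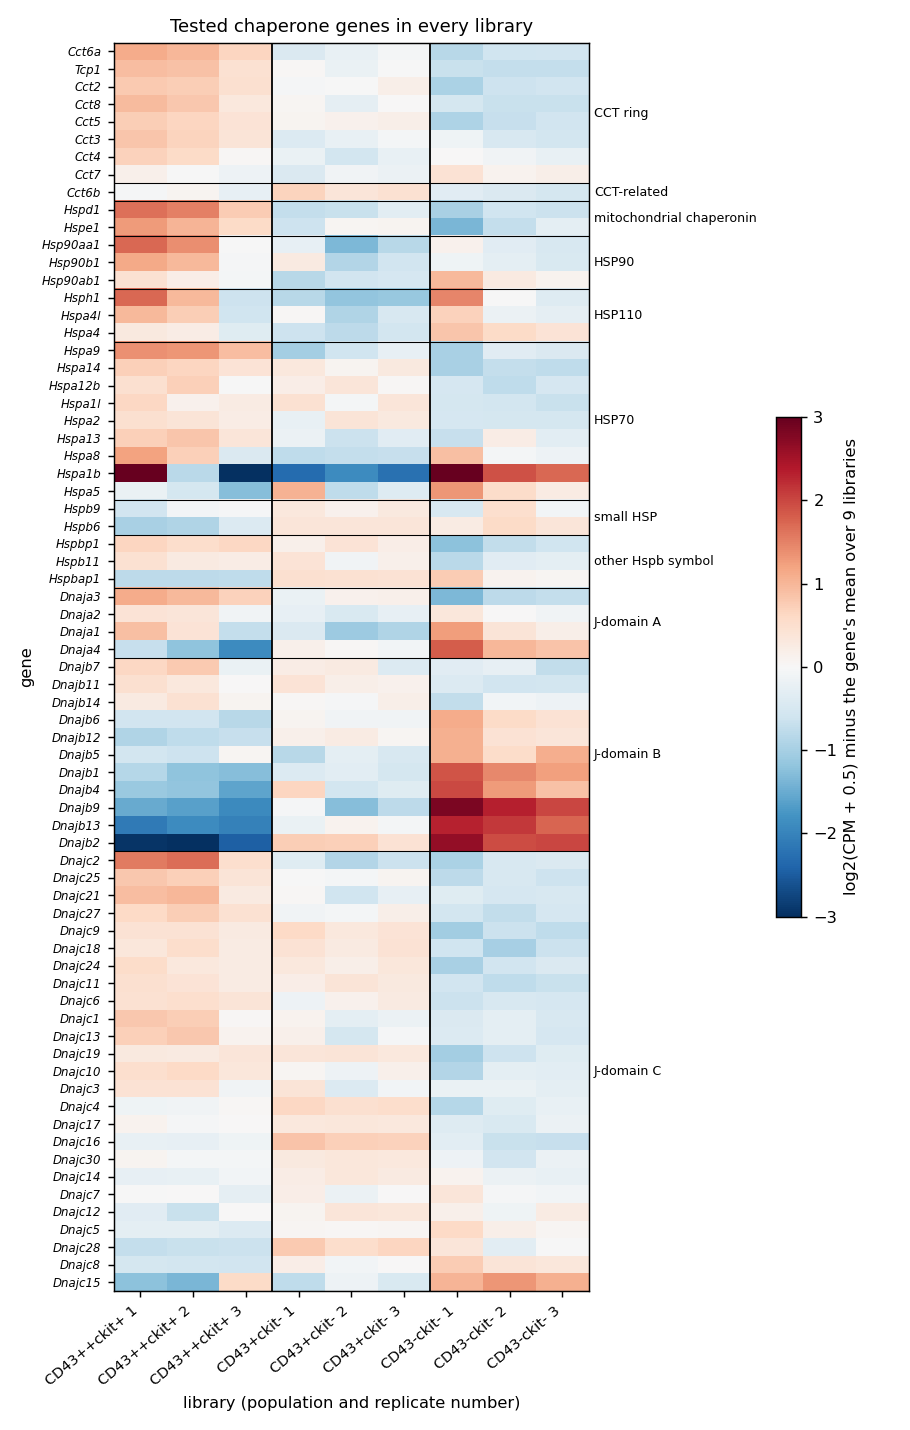
Level of each tested member in the 9 libraries, with the libraries of CD43++ckit+, CD43+ckit- and CD43-ckit- cells in columns from left to right and genes in rows by family; colour is log2(CPM + 0.5) minus the gene's mean over the 9 libraries, limited to between -3 and 3. The CCT ring and mitochondrial chaperonin rows are high in the CD43++ckit+ columns apart from Cct7, and most J-domain B rows are high in the CD43-ckit- columns.

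The CCT ring genes, apart from 1, were highest in CD43++ckit+ cells. Of the 8 CCT ring genes, 7 were higher in CD43++ckit+ cells than in CD43+ckit- cells (87.5%, beside 19.7% of all tested genes, median log2 fold change 0.78, beside 0.01). Against CD43-ckit- cells, 7 were higher (87.5%, beside 39.7%, median 1.33, beside 0.19). Between CD43+ckit- and CD43-ckit- cells, 5 were higher and 1 lower (62.5% and 12.5%, beside 31.0% and 20.9%, median 0.50, beside 0.13). The 8 genes together took 0.364%, 0.343% and 0.303% of all counts in CD43++ckit+ cells, 0.165%, 0.173% and 0.197% in CD43+ckit- cells and 0.0855%, 0.0989% and 0.106% in CD43-ckit- cells. These shares are on the scale of library totals, not TMM, and the 3 populations did not overlap. The TMM-scaled sums were 2890, 2677 and 2149 CPM in CD43++ckit+ cells and 1562, 1589 and 1732 CPM in CD43+ckit- cells. In CD43-ckit- cells they were 1451, 1347 and 1368 CPM. The populations did not overlap on that scale either, but the step between the c-Kit-negative populations was smaller.

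Cct6a, the zeta subunit, had the largest difference of the ring from CD43+ckit- cells. Its level was 277, 256 and 199 CPM in CD43++ckit+ cells, 94.8, 109 and 123 CPM in CD43+ckit- cells and 71.1, 84.0 and 85.4 CPM in CD43-ckit- cells. All 3 CD43++ckit+ libraries lay above all other libraries. In the fit, the log2 fold change was 1.17 (SE 0.16, adjusted p = 0.000825) against CD43+ckit- cells and 1.61 (SE 0.16, adjusted p = 5.05e-05) against CD43-ckit- cells. The further difference between CD43+ckit- cells and CD43-ckit- cells was smaller, with a log2 fold change of 0.44 (adjusted p = 0.0442), and was not called when CD43++ckit+ replicate 2, CD43+ckit- replicate 2 or 3 or any 1 CD43-ckit- replicate was left out (adjusted p up to 0.135).

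Tcp1, the alpha subunit, had 314, 301 and 225 CPM in CD43++ckit+ cells, 167, 143 and 164 CPM in CD43+ckit- cells and 104, 100.3 and 99.3 CPM in CD43-ckit- cells. The populations formed 3 separate steps, and each pair differed (0.83, SE 0.14, adjusted p = 0.00224 for CD43++ckit+ versus CD43+ckit- cells, and 0.64, SE 0.14, adjusted p = 0.0057 for CD43+ckit- versus CD43-ckit- cells). Its exons share 20.6% of their bases with other genes, Acat3 and Mrpl18, whose reads could be counted with it. Acat3 had at most 13 counts in any library. Cct2, the beta subunit, stepped down in the same way, with 410.1, 402 and 334 CPM in CD43++ckit+ cells, 234, 238 and 270.1 CPM in CD43+ckit- cells and 124, 156 and 161 CPM in CD43-ckit- cells. Cct5, the epsilon subunit, had 424, 397 and 341 CPM in CD43++ckit+ cells, 268, 279 and 287 CPM in CD43+ckit- cells and 135, 158 and 170.2 CPM in CD43-ckit- cells. Cct8, the theta subunit, had 379, 343 and 245 CPM in CD43++ckit+ cells, 203, 162 and 197 CPM in CD43+ckit- cells and 136, 123 and 123 CPM in CD43-ckit- cells. Neither had an overlap between populations, at log2 fold changes of 0.48 and 0.78 for CD43++ckit+ versus CD43+ckit- cells and of 0.85 and 0.55 for CD43+ckit- versus CD43-ckit- cells. Both were called at both steps, but the first step of Cct5 was not called when CD43++ckit+ replicate 1 or 2 or CD43+ckit- replicate 1 was left out (adjusted p up to 0.0814). The second step of Cct8 was not called when CD43+ckit- replicate 1 or 3 or CD43-ckit- replicate 2 or 3 was left out (adjusted p up to 0.0712), nor with DESeq2 (0.36, adjusted p = 0.0679).

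Cct3 and Cct4 were called in CD43++ckit+ cells against both other populations and not between those 2. Cct3, the gamma subunit, had 392, 350.3 and 288 CPM in CD43++ckit+ cells, 165, 187 and 209.9 CPM in CD43+ckit- cells and 202, 157 and 151 CPM in CD43-ckit- cells. Its libraries overlapped between the c-Kit-negative populations (0.14, adjusted p = 0.479). Cct4, the delta subunit, had 273, 252 and 175 CPM in CD43++ckit+ cells, 147, 117 and 146 CPM in CD43+ckit- cells and 171, 157 and 146 CPM in CD43-ckit- cells. Its difference from CD43-ckit- cells (0.56, SE 0.18, adjusted p = 0.0201) was not called when CD43++ckit+ replicate 1 or 2 or CD43-ckit- replicate 2 or 3 was left out (adjusted p up to 0.0751).

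Cct7, the eta subunit, did not follow the other 7. It had 421, 375 and 343 CPM in CD43++ckit+ cells, 282, 355 and 336 CPM in CD43+ckit- cells and 509.8, 411 and 431 CPM in CD43-ckit- cells, so that CD43-ckit- held the 2 highest libraries. It was not called in CD43++ckit+ cells against CD43+ckit- cells (0.23, SE 0.14, adjusted p = 0.248) or against CD43-ckit- cells (-0.25, SE 0.14, adjusted p = 0.152). Against CD43-ckit- cells Cct7 was called lower with DESeq2 (-0.49, adjusted p = 0.00146) and with DESeq2 size factors in edgeR (-0.49, adjusted p = 0.014). The stricter low-count filter also gave that call (-0.39, adjusted p = 0.0303), while library totals gave a higher level (0.67, adjusted p = 0.000813). It was lower in CD43+ckit- cells than in CD43-ckit- cells (-0.47, SE 0.15, adjusted p = 0.0229), where 5 other ring genes were higher. That call was not made when CD43+ckit- replicate 1 or 3 or CD43-ckit- replicate 1 was left out (adjusted p up to 0.102), and with scaling by library totals the sign turned, to 0.19, adjusted p = 0.204.

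Of the prefoldin subunits and other CCT helpers, which hand actin and tubulin to the ring, 9 of 10 were tested. In CD43++ckit+, 2 were higher and 1 lower than in CD43+ckit- cells, and 3 were higher and 2 lower than in CD43-ckit- cells. As shares that was 22.2% higher and 11.1% lower, beside 19.7% and 20.1% of all tested genes, in the first comparison, and 33.3% higher and 22.2% lower, beside 39.7% and 27.7% of all tested genes, in the second.

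**Figure D2:**
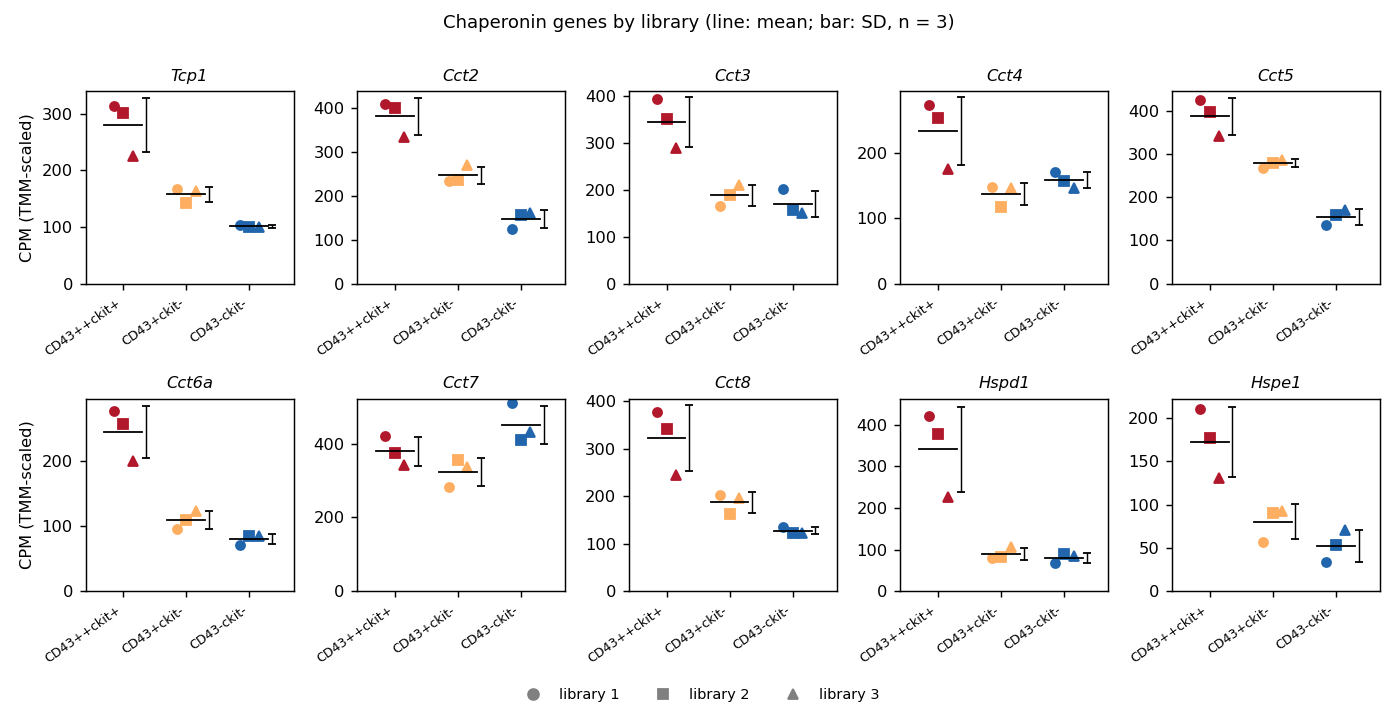
Level in CPM of the 8 CCT ring genes and of the mitochondrial chaperonin genes Hspd1 and Hspe1 in CD43++ckit+, CD43+ckit- and CD43-ckit- cells (left to right); each point is 1 library, and the line and bar give the mean and SD of 3. The CD43++ckit+ points lie above both other populations for every gene drawn except Cct7, whose CD43-ckit- library 1 is the highest.

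The main folding genes of the mitochondrial matrix, Hspd1, Hspe1 and Hspa9, were higher in CD43++ckit+ cells than in both other populations and were not called between those 2 in the fit to all libraries. Hspd1 encodes HSP60, the matrix chaperonin, and Hspe1 encodes HSP10, its lid. The pair is transcribed in opposite directions from 1 shared stretch of DNA. It is shown because the stretch carries the heat shock element, the repeated GAA unit that heat shock factor 1 binds. The stretch between the first exons of the pair, as GENCODE annotates them, lies at chr1:55088025-55088131 of GRCm38.p6. The sequence is RefSeq's, printed from the plus strand, on which Hspe1 lies and Hspd1 does not, with the GAA and TTC units in capitals.

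Hspd1 and Hspe1: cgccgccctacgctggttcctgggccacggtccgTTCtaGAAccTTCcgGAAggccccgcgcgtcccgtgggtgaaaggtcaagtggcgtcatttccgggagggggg

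The 4 alternating units make 2 overlapping matches to the searched motif, which is GAA, TTC and GAA with 2 free bases between units (on the other strand TTC, GAA and TTC). In the 250 bases before the gene start, 139 of 27025 genes with a RefSeq promoter held such a match on either strand (0.514%), as did 3 of the 69 members with one: Hspd1, Hspe1 and Dnajb6. Dnajb6 was lower in CD43++ckit+ cells than in both other populations, the opposite of the chaperonin pair.

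Hspd1 had 420.2, 377 and 226 CPM in CD43++ckit+ cells, 80.3, 83.0 and 106 CPM in CD43+ckit- cells and 67.2, 88.4 and 85.2 CPM in CD43-ckit- cells. The lowest CD43++ckit+ library, number 3, was still above every library of the other populations, which overlapped each other. This gave a log2 fold change of 1.92 (SE 0.24, adjusted p = 0.000578) against CD43+ckit- cells and 2.09 (SE 0.24, adjusted p = 9.74e-05) against CD43-ckit- cells, and 0.16 (SE 0.23, adjusted p = 0.563) between CD43+ckit- cells and CD43-ckit- cells. Only 60.3% of the 50-base words of its transcripts occur in no other gene, so the way shared reads were counted could change its level.

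Hspe1 had 211, 177 and 130.4 CPM in CD43++ckit+ cells, 56.7, 91.0 and 92.6 CPM in CD43+ckit- cells and 33.7, 52.9 and 71.0 CPM in CD43-ckit- cells. The CD43++ckit+ libraries were again the 3 highest. The log2 fold change was 1.11 (SE 0.30, adjusted p = 0.0167) against CD43+ckit- cells, not called when CD43++ckit+ replicate 1 or CD43+ckit- replicate 1 was left out (adjusted p up to 0.0637). Against CD43-ckit- it was 1.72 (SE 0.31, adjusted p = 0.000979), and this call was kept with each library left out in turn. Fits to CD43+ckit- and CD43-ckit- cells alone were made with and without the replicate number as a block. Hspe1 was not called in the one without the block and was higher in CD43+ckit- cells in the one with it (0.58, adjusted p = 0.00125). With the block, few libraries are left to measure the spread. A very small adjusted p there is no measure of the strength of a difference.

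Hspa9 encodes mortalin, the HSP70 of the matrix, which pulls precursor proteins through the inner membrane. It had 338, 324 and 247 CPM in CD43++ckit+ cells, 64.1, 85.6 and 109.9 CPM in CD43+ckit- cells and 66.0, 102 and 96.3 CPM in CD43-ckit- cells. Every CD43++ckit+ library was above every other library, and the other populations overlapped. In the fit, the log2 fold change was 1.81 (SE 0.24, adjusted p = 0.000742) against CD43+ckit- cells and 1.78 (SE 0.24, adjusted p = 0.000223) against CD43-ckit- cells. Dnaja3, its matrix J-domain partner, had 73.9, 66.9 and 55.6 CPM in CD43++ckit+ cells, 29.8, 37.3 and 38.3 CPM in CD43+ckit- cells and 13.1, 19.4 and 20.5 CPM in CD43-ckit- cells. Unlike the 3 genes above it was called at both steps, with a log2 fold change of 0.90 (SE 0.19, adjusted p = 0.00611) for CD43++ckit+ versus CD43+ckit- cells and 0.99 (SE 0.20, adjusted p = 0.00337) for CD43+ckit- versus CD43-ckit- cells.

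Dnajc19 and Dnajc11, also mitochondrial J-domain genes, were lowest in CD43-ckit- cells. Dnajc19, part of the import motor, had 26.4, 26.2 and 27.9 CPM in CD43++ckit+ cells, 28.0, 28.1 and 26.8 CPM in CD43+ckit- cells and 10.3, 13.8 and 16.7 CPM in CD43-ckit- cells. Dnajc11, a protein of the complex that shapes the cristae, had 93.3, 89.9 and 79.0 CPM in CD43++ckit+ cells, 77.2, 87.7 and 81.8 CPM in CD43+ckit- cells and 44.8, 39.4 and 41.9 CPM in CD43-ckit- cells. Neither was called between CD43++ckit+ cells and CD43+ckit- cells (adjusted p = 0.875 and 0.59). Both were higher in CD43+ckit- cells than in CD43-ckit- cells, by 1.02 and 0.97 on the log2 scale (adjusted p = 0.0015 and 0.000293). Of 13 mitochondrial folding and protease partners, such as the nucleotide exchange factors of Hspa9 and the matrix proteases, 4 were higher and 3 lower in CD43++ckit+ cells than in CD43+ckit- cells, and 6 were higher and 3 lower than in CD43-ckit- cells. Those shares were 30.8% higher and 23.1% lower, beside 19.7% and 20.1% of all tested genes, against CD43+ckit- cells, and 46.2% higher and 23.1% lower, beside 39.7% and 27.7% of all tested genes, against CD43-ckit- cells.

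All 3 HSP90 genes were higher in CD43++ckit+ cells than in CD43+ckit- cells, and 2 were higher than in CD43-ckit- cells. Those were 100% and 66.7% of the family, beside 19.7% and 39.7% of all tested genes. Hsp90aa1, the inducible cytosolic form, had 1421, 1119.7 and 424 CPM in CD43++ckit+ cells, 363, 169 and 239 CPM in CD43+ckit- cells and 467, 341 and 306 CPM in CD43-ckit- cells. CD43++ckit+ library 3 was far below libraries 1 and 2 and below the highest CD43-ckit- library, so these populations overlapped. This gave a log2 fold change of 1.94 (SE 0.44, adjusted p = 0.00754) against CD43+ckit- cells, kept with each library left out in turn. Against CD43-ckit- it was 1.41 (SE 0.43, adjusted p = 0.017), and was not called when CD43++ckit+ replicate 1 or CD43-ckit- replicate 2 or 3 was left out (adjusted p up to 0.0644). Reads of this gene are also open to sharing, since 52.5% of the 50-base words in its transcripts are unique to it. Between CD43+ckit- and CD43-ckit- cells it was not called (-0.53, SE 0.43, adjusted p = 0.305), nor in the fit to these 2 populations without the block, and with the block it was (-0.64, adjusted p = 0.00214).

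Hsp90ab1, the constitutive cytosolic form, was lowest in the middle population. It had 2992, 2501 and 2098 CPM in CD43++ckit+ cells, 1218, 1468 and 1530.1 CPM in CD43+ckit- cells and 4259, 2632 and 2368 CPM in CD43-ckit- cells. Every CD43+ckit- library was below every other library. Its log2 fold change was 0.85 (SE 0.24, adjusted p = 0.0205) for CD43++ckit+ versus CD43+ckit- cells, not called when CD43++ckit+ replicate 1 or 2 or CD43+ckit- replicate 1 was left out (adjusted p up to 0.0838). It was -1.13 (SE 0.24, adjusted p = 0.00451) for CD43+ckit- versus CD43-ckit- cells, and CD43++ckit+ cells and CD43-ckit- cells were not called apart (-0.29, SE 0.24, adjusted p = 0.299). With scaling by library totals CD43++ckit+ was higher than CD43-ckit- cells (0.66, adjusted p = 0.00643), and with DESeq2 it was lower (-0.52, adjusted p = 0.0408).

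Several cytosolic HSP70, HSP110 and HSP90 genes varied widely between libraries of CD43++ckit+ cells. The ratio of the highest to the lowest of these libraries had a median of 2.99 over the 3 HSP110 genes and 2.26 over the 3 HSP90 genes. It was 1.45 over the 9 tested HSP70 genes and 1.38 over the CCT ring. The HSP90 median was the value of Hsp90b1, the ER form, beside 3.35 for Hsp90aa1 and 1.43 for Hsp90ab1. Hspa1b, the stress-inducible HSP70, had 4997, 190 and 29 counts in CD43++ckit+ cells, or 128, 5.20 and 0.648 CPM. It had 1.51, 2.21 and 1.60 CPM in CD43+ckit- cells and 83.1, 37.0 and 32.5 CPM in CD43-ckit- cells. The highest CD43++ckit+ library exceeded the lowest by 198-fold, the widest ratio of the 11240 genes with at least 10 counts in each CD43++ckit+ library, while the CD43+ckit- libraries were all low and close together. The log2 fold change was 4.65 (SE 1.63, adjusted p = 0.052) for CD43++ckit+ versus CD43+ckit- cells and -0.19 (SE 1.37, adjusted p = 0.906) versus CD43-ckit- cells, neither called. Without CD43++ckit+ library 1 the second was -4.11, adjusted p = 0.00563 and was called, and the first was called without CD43++ckit+ library 2 (5.18, adjusted p = 0.0413) or 3 (5.23, adjusted p = 0.00483). The libraries of CD43+ckit- cells and CD43-ckit- cells did not overlap for Hspa1b, and their log2 fold change was -4.84 (SE 1.64, adjusted p = 0.038), not called when any 1 CD43+ckit- replicate or any 1 CD43-ckit- replicate was left out (adjusted p up to 0.123). Hspa1a, a neighbouring gene for a nearly identical protein, had at most 1.20 CPM in any library and was not tested, and 37.7% of the 50-base words of Hspa1b occur in no other gene, so reads of the pair could have been left out or assigned to either.

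Hsph1, an HSP110 that exchanges nucleotide on HSP70, had 226, 134 and 43.7 CPM in CD43++ckit+ cells, 38.1, 29.5 and 30.5 CPM in CD43+ckit- cells and 187, 67.3 and 51.4 CPM in CD43-ckit- cells. CD43++ckit+ held the highest of the 9 libraries and also a library below the CD43-ckit- range, and the 3 CD43+ckit- libraries were the lowest. In the fit, the log2 fold change was 2.04 (SE 0.64, adjusted p = 0.0348) for CD43++ckit+ versus CD43+ckit- cells, not called when CD43++ckit+ replicate 1 or 2 or any 1 CD43+ckit- replicate was left out (adjusted p up to 0.122). For CD43+ckit- versus CD43-ckit- cells it was -1.64 (SE 0.64, adjusted p = 0.0585) and was called in fits to these 2 populations alone (-1.70, adjusted p = 0.0159 without the block and -1.47, adjusted p = 2.02e-15 with it). Like-numbered libraries differed unevenly, at 38.1 and 187, 29.5 and 67.3, and 30.5 and 51.4 CPM. The p from the fit with the block does not measure the strength of the difference.

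Hspa8, the constitutive HSP70, had 3821, 2705 and 1214 CPM in CD43++ckit+ cells, 963, 1002 and 1017 CPM in CD43+ckit- cells and 3089.5, 1580.4 and 1473 CPM in CD43-ckit- cells. Library 1 was the highest and library 3 the lowest in CD43++ckit+ cells and CD43-ckit- cells, as for Hsph1, while the CD43+ckit- libraries lay close together. This gave a log2 fold change of 1.38 (SE 0.41, adjusted p = 0.0255) for CD43++ckit+ versus CD43+ckit- cells, not called when CD43++ckit+ replicate 1 or 2 or any 1 CD43+ckit- replicate was left out (adjusted p up to 0.102). It was -1.04 (SE 0.41, adjusted p = 0.0564) for CD43+ckit- versus CD43-ckit- cells, and was called in fits to these 2 populations alone (-1.10, adjusted p = 0.0149 without the block and -1.01, adjusted p = 4.12e-05 with it). Of the 50-base words in its transcripts, 61.4% are found in Hspa8 alone.

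Hspa4, another HSP110, was called in opposite directions. It had 285, 275 and 181 CPM in CD43++ckit+ cells, 152, 135 and 158 CPM in CD43+ckit- cells and 415, 350.0 and 309.7 CPM in CD43-ckit- cells. The 3 populations did not overlap, with CD43+ckit- cells lowest and CD43-ckit- cells highest. The log2 fold change was 0.73 (SE 0.19, adjusted p = 0.0138) for CD43++ckit+ versus CD43+ckit- cells, -0.54 (SE 0.19, adjusted p = 0.0308) versus CD43-ckit- cells and -1.27 (SE 0.19, adjusted p = 0.000857) for CD43+ckit- versus CD43-ckit- cells. The first was not called when CD43++ckit+ replicate 1 or 2 was left out (adjusted p up to 0.06) and the second was not called when CD43++ckit+ replicate 3, CD43+ckit- replicate 3 or CD43-ckit- replicate 1 or 2 was left out (adjusted p up to 0.0927), and the third was kept with each library left out in turn. With scaling by library totals the second was positive (0.38, adjusted p = 0.0373).

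Hspa4l, the third HSP110, was called in no comparison of the fit to all libraries, with 74.2, 63.1 and 24.8 CPM in CD43++ckit+ cells, 38.6, 19.9 and 26.7 CPM in CD43+ckit- cells and 61.5, 33.1 and 31.4 CPM in CD43-ckit- cells, and in fits to CD43+ckit- and CD43-ckit- cells alone it was lower in CD43+ckit- cells with the block (-0.61, adjusted p = 0.00104) and not called without it. CD43++ckit+ library 3, the lowest of its population for Hspa1b, Hsph1, Hspa8, Hspa4, Hspa4l and Hsp90aa1, is the library with the high neutrophil sum given above. It was also the lowest for every CCT ring gene, Hspd1, Hspe1 and Hspa9, so this was not particular to cytosolic HSP70, HSP110 and HSP90 genes. The part of neutrophil RNA in this spread was not tested.

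Dnaja1, a J-domain partner of cytosolic HSP70, was also highest in library 1 of each population, with 168, 118 and 54.3 CPM in CD43++ckit+ cells, 66.5, 41.6 and 47.7 CPM in CD43+ckit- cells and 214, 117 and 101 CPM in CD43-ckit- cells. It was lower in CD43+ckit- cells than in CD43-ckit- cells (-1.47, SE 0.43, adjusted p = 0.019) and not called in CD43++ckit+ cells against either other population (adjusted p = 0.0625 and 0.471). The lower level in CD43+ckit- cells was not called when CD43+ckit- replicate 2 or 3 or CD43-ckit- replicate 1 was left out (adjusted p up to 0.0745). Dnaja1 was higher in CD43++ckit+ cells than in CD43+ckit- cells without CD43++ckit+ library 3 (1.46, adjusted p = 0.00756). Library 1 was the highest of its population for 42 of 70 members in CD43++ckit+ cells, 35 of 68 in CD43+ckit- cells and 39 of 67 in CD43-ckit- cells. The same count over all genes was not taken, so this cannot be read as particular to the members. The median ratio of highest to lowest library over members was 1.38 in CD43++ckit+ cells, 1.25 in CD43+ckit- cells and 1.36 in CD43-ckit- cells, beside 1.28, 1.30 and 1.45 over all genes with at least 10 counts in each library of the population.

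**Figure D3:**
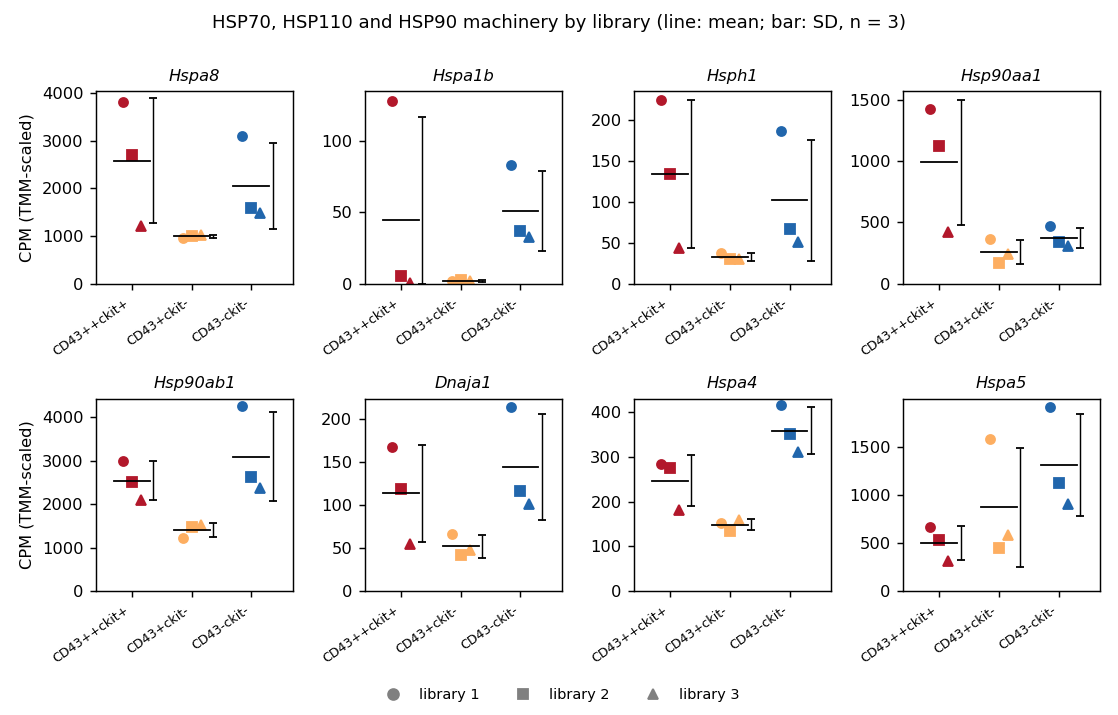
Level in CPM of HSP70, HSP110 and HSP90 genes in CD43++ckit+, CD43+ckit- and CD43-ckit- cells (left to right); each point is 1 library, and the line and bar give the mean and SD of 3, with the lower line stopped at 0. In CD43++ckit+ the points of Hspa1b, Hsph1, Hspa8 and Hsp90aa1 are far apart, with library 1 highest and library 3 lowest, while the CD43+ckit- points of Hspa8 lie together.

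Other HSP70 members varied less between libraries. Hspa14, the HSP70 of the ribosome-associated complex, had 87.1, 83.9 and 71.2 CPM in CD43++ckit+ cells, 65.8, 56.0 and 65.5 CPM in CD43+ckit- cells and 26.7, 31.9 and 30.9 CPM in CD43-ckit- cells. The 3 populations did not overlap, and the larger step was between CD43+ckit- cells and CD43-ckit- cells (1.07, SE 0.13, adjusted p = 0.000351). The step between CD43++ckit+ cells and CD43+ckit- cells was 0.37 (SE 0.13, adjusted p = 0.0483) and was not called when CD43++ckit+ replicate 1 or 2, any 1 CD43+ckit- replicate or CD43-ckit- replicate 2 or 3 was left out (adjusted p up to 0.168). Dnajc2, its J-domain partner at the ribosome, stepped elsewhere. It had 63.6, 69.2 and 30.4 CPM in CD43++ckit+ cells, 16.5, 11.3 and 13.4 CPM in CD43+ckit- cells and 10.8, 15.2 and 15.6 CPM in CD43-ckit- cells, with log2 fold changes of 1.99 (SE 0.31, adjusted p = 0.00136) for CD43++ckit+ versus CD43+ckit- cells and -0.02 (SE 0.30, adjusted p = 0.965) for CD43+ckit- versus CD43-ckit- cells. Hspa2, Hspa1l and Hspa12b were higher in CD43++ckit+ cells than in CD43-ckit- cells and not called against CD43+ckit- cells, at mean levels of 23.0 ± 2.20, 3.85 ± 0.780 and 5.24 ± 1.40 CPM in CD43++ckit+ cells, against 12.1 ± 0.142, 1.79 ± 0.123 and 2.35 ± 0.279 CPM in CD43-ckit- cells (SD, n = 3). The exons of Hspa1l share 71.9% of their bases with another annotated gene. Hspa13, a microsomal HSP70, was higher in CD43++ckit+ cells, at 12.8, 13.9 and 10.03 CPM, than in CD43+ckit- cells at 6.66, 4.73 and 5.96 CPM and CD43-ckit- cells at 4.56, 9.03 and 6.03 CPM, and the calls were not made when CD43+ckit- replicate 2 was left out (adjusted p up to 0.0506) in the first comparison and when CD43++ckit+ replicate 2 or CD43-ckit- replicate 3 was left out (adjusted p up to 0.0547) in the second. Hspa12a had at most 0.0786 CPM and was not tested.

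In the ER the main HSP70 was lower and the main HSP90 higher in CD43++ckit+ cells than in CD43-ckit- cells. Hspa5 (BiP, the HSP70 of the ER) and Hsp90b1 (GRP94, its HSP90) are textbook targets of the unfolded protein response, as is Dnajc3, an ER J-domain protein. They are shown by sequence because their promoters, alone among the 69 members with one, held the ER stress element, searched as CCAAT and CCACG with 9 free bases between them (on the other strand CGTGG and ATTGG). It occurred in 35 of 27025 genes with a RefSeq promoter (0.13%), and no window of another member held these letters. The sites below are from RefSeq on GRCm38.p6, each read on its motif strand with 5 bases on either side, and capitals mark the CCAAT and CCACG ends. Positions before the gene start are those of the motif.

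Hspa5, chr2:34772020-34772048, plus strand, bases -65 to -47 from the gene start: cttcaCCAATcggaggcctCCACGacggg

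Hsp90b1, chr10:86705528-86705556, plus strand, bases -107 to -89: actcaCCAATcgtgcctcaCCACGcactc

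Hsp90b1, chr10:86705633-86705661, minus strand, bases -212 to -194: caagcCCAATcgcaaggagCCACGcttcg

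Dnajc3, chr14:118937822-118937850, plus strand, bases -105 to -87: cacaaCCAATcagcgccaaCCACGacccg

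Hspa5 had 664, 529 and 313 CPM in CD43++ckit+ cells, 1581, 451 and 585 CPM in CD43+ckit- cells and 1913, 1121 and 903 CPM in CD43-ckit- cells. CD43++ckit+ and CD43-ckit- cells did not overlap, and CD43+ckit- library 1 lay far above libraries 2 and 3 of its population. Hspa5 was lower in CD43++ckit+ cells than in CD43-ckit- cells (-1.39, SE 0.51, adjusted p = 0.037), a call that was not made when CD43++ckit+ replicate 2 or 3 or CD43-ckit- replicate 1 or 2 was left out (adjusted p up to 0.142). It was not called against CD43+ckit- cells (-0.80, SE 0.50, adjusted p = 0.245). For CD43+ckit- versus CD43-ckit- cells it was -0.59 (SE 0.50, adjusted p = 0.333), and in fits to these 2 populations alone it was called with the block (-0.80, adjusted p = 0.000795) and not without it.

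Hsp90b1 had 344, 307 and 152 CPM in CD43++ckit+ cells, 190.4, 84.9 and 104 CPM in CD43+ckit- cells and 143, 128 and 115 CPM in CD43-ckit- cells. CD43++ckit+ library 3 fell below CD43+ckit- library 1 and stayed above CD43-ckit- cells. It was higher in CD43++ckit+ cells than in CD43+ckit- cells (1.08, SE 0.35, adjusted p = 0.0375) and than in CD43-ckit- cells (1.06, SE 0.35, adjusted p = 0.0254). The first was not called when CD43++ckit+ replicate 1 or 2, CD43+ckit- replicate 2 or 3 or any 1 CD43-ckit- replicate was left out (adjusted p up to 0.13), and the second was not called when CD43++ckit+ replicate 1 or 2 or any 1 CD43-ckit- replicate was left out (adjusted p up to 0.0853). Dnajc3 had 60.6, 61.1 and 41.5 CPM in CD43++ckit+ cells, 59.0, 33.7 and 42.1 CPM in CD43+ckit- cells and 39.0, 39.2 and 36.7 CPM in CD43-ckit- cells, and was called in no comparison (adjusted p = 0.359, 0.0661 and 0.384 in the order used above).

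The J-domain genes of the ER lumen also had calls in both directions. Dnajb9 (ERdj4), which works with BiP and is induced by ER stress, had 13.0, 12.0 and 9.67 CPM in CD43++ckit+ cells, 37.1, 15.3 and 21.7 CPM in CD43+ckit- cells and 271, 195 and 154 CPM in CD43-ckit- cells. CD43-ckit- lay far above the others, with log2 fold changes of -4.16 (SE 0.36, adjusted p = 2.02e-05) for CD43++ckit+ and -3.06 (SE 0.34, adjusted p = 0.000209) for CD43+ckit- against it. Dnajb9 was also lower in CD43++ckit+ cells than in CD43+ckit- cells (-1.10), a call not made when any 1 CD43++ckit+ replicate or CD43+ckit- replicate 1 was left out (adjusted p up to 0.0771). Dnajb11 (ERdj3), which binds newly made chains, had 117, 105 and 84.4 CPM in CD43++ckit+ cells, 112, 94.7 and 92.6 CPM in CD43+ckit- cells and 63.6, 56.2 and 56.8 CPM in CD43-ckit- cells. It ran the other way, lowest in CD43-ckit- cells (0.80, SE 0.15, adjusted p = 0.00123 for CD43++ckit+ against it). Dnajc10 (ERdj5), a disulfide reductase, was likewise higher in CD43++ckit+ cells than in CD43-ckit- cells (0.97, SE 0.18, adjusted p = 0.00129).

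Other ER folding and unfolded protein response genes, 19 in all, were split. In CD43++ckit+, 8 were higher and 1 lower than in CD43+ckit- cells, and 10 were higher and 7 lower than in CD43-ckit- cells. The list thus had 42.1% higher and 5.26% lower, beside 19.7% and 20.1% of all tested genes, in the first comparison, and 52.6% higher and 36.8% lower, beside 39.7% and 27.7% of all tested genes, in the second. Against CD43-ckit-, the lower ones included the stress-induced factor Ddit3 (CHOP, 23.4 ± 3.31 CPM in CD43++ckit+ cells against 187 ± 50.4 CPM in CD43-ckit- cells, SD, n = 3 each, adjusted p = 2.78e-05), the lectin chaperone Calr (-1.88, SE 0.18, adjusted p = 4.18e-05) and the degradation factor Herpud1 (-1.77, SE 0.19, adjusted p = 6.93e-05). The higher ones included the disulfide isomerase Pdia6 (1.23, SE 0.15, adjusted p = 0.000135).

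The J-domain B family held 7 of the 15 members that were lower in CD43++ckit+ cells than in CD43+ckit- cells and 8 of the 16 that were lower than in CD43-ckit- cells. Of 11 tested, 0 were higher and 7 lower than in CD43+ckit- cells, 3 higher and 8 lower than in CD43-ckit- cells, and 1 higher and 7 lower in CD43+ckit- cells than in CD43-ckit- cells. The lower ones were 63.6%, 72.7% and 63.6% of the family in these comparisons, beside 20.1%, 27.7% and 20.9% of all tested genes. The erythroid gene sums given above rise in the same order of populations, and their part in these results was not tested.

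Dnajb2 (HSJ1), which passes ubiquitinated clients to the proteasome, had the lowest log2 fold change of the tested members for CD43++ckit+ versus CD43-ckit- cells. It had 12.4, 10.9 and 17.6 CPM in CD43++ckit+ cells, 163, 161 and 133 CPM in CD43+ckit- cells and 615, 378 and 391 CPM in CD43-ckit- cells. Each population stood clear of the next. In the fit, the log2 fold change was -3.48 (SE 0.26, adjusted p = 0.000292) for CD43++ckit+ versus CD43+ckit- cells, -5.08 (SE 0.28, adjusted p = 1.90e-06) versus CD43-ckit- cells and -1.60 (SE 0.24, adjusted p = 0.00081) for CD43+ckit- versus CD43-ckit- cells.

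Dnajb13, known as a protein of the axoneme in sperm and cilia, had 4.51, 5.31 and 4.82 CPM in CD43++ckit+ cells, 18.3, 22.8 and 20.4 CPM in CD43+ckit- cells and 107, 93.1 and 72.2 CPM in CD43-ckit- cells. The 3 populations again did not overlap (-4.21, SE 0.19, adjusted p = 1.40e-06 for CD43++ckit+ versus CD43-ckit- cells). Its exons share 11.8% of their bases with Ucp2, which had 420.0, 462 and 723 CPM in CD43++ckit+ cells, 2285, 2419 and 1829 CPM in CD43+ckit- cells and 8662, 6955 and 6472 CPM in CD43-ckit- cells. The part of Ucp2 reads in the Dnajb13 counts was not tested.

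Dnajb1, the HSP40 that serves inducible HSP70, had 133, 104 and 98.5 CPM in CD43++ckit+ cells, 182, 195 and 168 CPM in CD43+ckit- cells and 891, 659.9 and 568 CPM in CD43-ckit- cells. Its CD43++ckit+ libraries lay close together, unlike those of Hspa1b. This gave a log2 fold change of -2.65 (SE 0.20, adjusted p = 8.81e-06) for CD43++ckit+ versus CD43-ckit- cells and -1.96 (SE 0.19, adjusted p = 0.000119) for CD43+ckit- versus CD43-ckit- cells. For CD43++ckit+ versus CD43+ckit- cells it was -0.70 (SE 0.19, adjusted p = 0.0167), not called when CD43++ckit+ replicate 2 was left out (adjusted p up to 0.0668).

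Dnajb4, a close relative of Dnajb1, had 14.9, 14.2 and 10.6 CPM in CD43++ckit+ cells, 51.3, 22.2 and 25.4 CPM in CD43+ckit- cells and 131, 79.6 and 60.7 CPM in CD43-ckit- cells. Dnajb6, which holds back aggregation, had 84.2, 83.9 and 70.2 CPM in CD43++ckit+ cells, 133, 118 and 117 CPM in CD43+ckit- cells and 275, 189 and 169.9 CPM in CD43-ckit- cells. Dnajb12, anchored in the ER membrane, had 37.9, 42.0 and 44.3 CPM in CD43++ckit+ cells, 79.9, 85.0 and 74.6 CPM in CD43+ckit- cells and 150.1, 96.6 and 91.4 CPM in CD43-ckit- cells. All 3 had their lowest libraries in CD43++ckit+ cells and their highest in CD43-ckit- cells, with log2 fold changes of -2.77, -1.41 and -1.44 for CD43++ckit+ versus CD43-ckit- cells. Against CD43+ckit-, Dnajb4 (-1.32) was not called when CD43+ckit- replicate 1 was left out (adjusted p up to 0.0628), and Dnajb6 (-0.63) was not called when any 1 CD43++ckit+ replicate or CD43+ckit- replicate 1 or 3 was left out (adjusted p up to 0.0723). The step of Dnajb12 between CD43+ckit- cells and CD43-ckit- cells (-0.50, adjusted p = 0.0501) was called in fits to these 2 populations alone (-0.55, adjusted p = 0.0495 without the block and -0.52, adjusted p = 0.00445 with it). Dnajb14, an ER membrane relative of Dnajb12, did the reverse. It was higher in CD43++ckit+ cells than in CD43-ckit- cells (0.62, SE 0.24, adjusted p = 0.0455), a call not made when CD43++ckit+ replicate 1 or 2, any 1 CD43+ckit- replicate or CD43-ckit- replicate 1 or 3 was left out (adjusted p up to 0.137).

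Dnaja4, of the J-domain A family, had 291, 204 and 128 CPM in CD43++ckit+ cells, 524, 482 and 448 CPM in CD43+ckit- cells and 1658, 945 and 849 CPM in CD43-ckit- cells. The 3 populations did not overlap (-1.22, SE 0.33, adjusted p = 0.0155 for CD43++ckit+ versus CD43+ckit- cells, and -2.47, SE 0.34, adjusted p = 0.000234 versus CD43-ckit- cells). Its exons share 44.6% of their bases with Wdr61, which ran in the other direction with 55.0, 52.9 and 44.7 CPM in CD43++ckit+ cells, 34.9, 34.9 and 35.8 CPM in CD43+ckit- cells and 17.8, 19.9 and 20.4 CPM in CD43-ckit- cells. Dnaja2, a cytosolic partner of HSP70, was higher in CD43++ckit+ cells than in CD43+ckit- cells (0.55, SE 0.17, adjusted p = 0.0296), a call not made when CD43++ckit+ replicate 1 or 2 or any 1 CD43+ckit- replicate was left out (adjusted p up to 0.113), and was not called against CD43-ckit- cells (adjusted p = 0.467). In fits to CD43+ckit- and CD43-ckit- cells alone it was lower in CD43+ckit- cells (-0.47, adjusted p = 0.0318 without the block and -0.46, adjusted p = 0.0116 with it).

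The J-domain C family, whose members share little beyond the J domain, had more higher than lower members in both CD43-positive populations against CD43-ckit- cells, as did all tested genes. Of 25 tested, 6 were higher and 5 lower in CD43++ckit+ cells than in CD43+ckit- cells. Against CD43-ckit-, 14 were higher and 3 lower, and in CD43+ckit- cells against CD43-ckit- cells 15 were higher and 1 lower. The higher ones were 24.0%, 56.0% and 60.0% of the family in these 3 comparisons, beside 19.7%, 39.7% and 31.0% of all tested genes. Of all tested genes 20.1%, 27.7% and 20.9% were lower in them.

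Dnajc21, a factor of large ribosomal subunit maturation, had 22.1, 23.3 and 14.1 CPM in CD43++ckit+ cells, 11.7, 7.38 and 9.55 CPM in CD43+ckit- cells and 8.80, 7.98 and 8.11 CPM in CD43-ckit- cells. As for Dnajc2, the CD43++ckit+ libraries were the 3 highest (1.05, SE 0.24, adjusted p = 0.00729 against CD43+ckit- cells, and 1.26, SE 0.24, adjusted p = 0.00148 against CD43-ckit- cells). Dnajc1, an ER membrane protein, and Dnajc13, an endosomal protein, were also higher in CD43++ckit+ cells than in both others, as were Dnajc25 and Dnajc27, but none was called against CD43+ckit- cells under every left-out library. The Dnajc1 call was not made when CD43++ckit+ replicate 1 or 2 or CD43+ckit- replicate 2 or 3 was left out (adjusted p up to 0.126), and the Dnajc13 call was not made when CD43++ckit+ replicate 1 or 2 or CD43+ckit- replicate 2 or 3 was left out (adjusted p up to 0.114). The Dnajc25 call was not made when CD43++ckit+ replicate 1 or 2 or any 1 CD43+ckit- replicate was left out (adjusted p up to 0.14), and the Dnajc27 call was not made when CD43++ckit+ replicate 2 was left out (adjusted p up to 0.0689).

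Several other family C genes were not called between CD43++ckit+ cells and CD43+ckit- cells and were lowest in CD43-ckit- cells. Dnajc9, a histone chaperone, had 109, 109.7 and 97.4 CPM in CD43++ckit+ cells, 123, 100.4 and 108 CPM in CD43+ckit- cells and 38.8, 51.6 and 47.4 CPM in CD43-ckit- cells. The CD43-ckit- libraries lay below all others, with a log2 fold change of 1.27 (SE 0.14, adjusted p = 0.000206) for CD43+ckit- versus CD43-ckit- cells. Dnajc24, needed for the diphthamide modification of elongation factor 2, and Dnajc18, an ER membrane protein, were also lowest in CD43-ckit- cells, at log2 fold changes of 0.99 and 1.19 for CD43+ckit- against it (adjusted p = 0.004 and 0.000907).

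A few members peaked in the middle population. Dnajc16 had 39.4, 38.7 and 42.4 CPM in CD43++ckit+ cells, 83.7, 76.0 and 75.6 CPM in CD43+ckit- cells and 37.3, 29.0 and 28.6 CPM in CD43-ckit- cells. CD43+ckit- stood clear above both others (-0.96, SE 0.13, adjusted p = 0.000803 for CD43++ckit+ against it, and 1.31, SE 0.13, adjusted p = 0.000138 for it against CD43-ckit- cells). The call for CD43++ckit+ versus CD43-ckit- cells (0.34) was not made when any 1 CD43++ckit+ replicate, CD43+ckit- replicate 3 or CD43-ckit- replicate 2 or 3 was left out (adjusted p up to 0.134). Dnajc28 had 5.66, 5.77 and 5.94 CPM in CD43++ckit+ cells, 16.8, 13.9 and 15.2 CPM in CD43+ckit- cells and 12.5, 7.59 and 9.47 CPM in CD43-ckit- cells, with the CD43++ckit+ libraries lowest. It was higher in CD43+ckit- cells than in CD43-ckit- cells (0.64), a call not made when CD43+ckit- replicate 1 or 3 or CD43-ckit- replicate 2 or 3 was left out (adjusted p up to 0.0878). Its difference from CD43-ckit- cells (-0.77, SE 0.20, adjusted p = 0.00882) turned to 0.17 and was not called with scaling by library totals. Dnajc4 and Dnajc14 were the other members called as highest there, at 12.8 ± 0.682 and 78.1 ± 2.97 CPM in CD43+ckit- cells (SD, n = 3). Against CD43-ckit- the Dnajc14 call was not made when CD43+ckit- replicate 2 or 3 or CD43-ckit- replicate 2 or 3 was left out (adjusted p up to 0.103), nor in fits to the 2 populations alone (0.32, adjusted p = 0.0912 without the block and 0.33, adjusted p = 0.0737 with it). The CD43++ckit+ comparison with CD43+ckit- cells gave -0.64 for Dnajc4, not called when CD43++ckit+ replicate 1 or 2 or any 1 CD43+ckit- replicate was left out (adjusted p up to 0.105), and -0.47 for Dnajc14, not called when CD43++ckit+ replicate 1 or 2 or CD43+ckit- replicate 2 was left out (adjusted p up to 0.0623).

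Dnajc8, a spliceosome protein, and Dnajc5, the cysteine-string protein of secretory vesicles, were, with Dnajc28, the family C members that were lower in CD43++ckit+ cells than in CD43-ckit- cells. Dnajc8 had 128, 124 and 123 CPM in CD43++ckit+ cells, 212, 173 and 185 CPM in CD43+ckit- cells and 313, 239 and 232 CPM in CD43-ckit- cells (-1.06, SE 0.14, adjusted p = 0.000223). Scaling by library totals did not give that call (-0.13, adjusted p = 0.249). Dnajc5 had a log2 fold change of -0.63 (SE 0.15, adjusted p = 0.00479), which was positive with scaling by library totals (0.31). Dnajc15, a mitochondrial import protein close to Dnajc19, rested on 1 library in CD43++ckit+ cells, with 2, 0 and 64 counts there, 8, 20 and 14 in CD43+ckit- cells and 27, 42 and 31 in CD43-ckit- cells. It was called in no comparison (adjusted p = 0.954, 0.118 and 0.125), and in fits to CD43+ckit- and CD43-ckit- cells alone it was lower in CD43+ckit- cells (-2.39, adjusted p = 0.00268 without the block and -2.43, adjusted p = 1.29e-08 with it). The p with the block comes from few libraries and few counts and does not measure the strength of the difference.

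The remaining J-domain genes had fewer calls. Dnajc6 (auxilin, which uncoats clathrin vesicles), Dnajc17 and Dnajc30 were higher in CD43+ckit- cells than in CD43-ckit- cells, by 0.65, 0.70 and 0.63 on the log2 scale (adjusted p = 0.00484, 0.00669 and 0.0131). Dnajb5, with at most 2.01 CPM, was lower in CD43++ckit+ cells than in CD43-ckit- cells (-1.96, SE 0.53, adjusted p = 0.00884), and Dnajb7, with at most 0.930 CPM, was higher (2.38, SE 0.93, adjusted p = 0.0464), a call not made when CD43++ckit+ replicate 1 or 2, CD43+ckit- replicate 1 or 2 or any 1 CD43-ckit- replicate was left out (adjusted p up to 0.115). Dnajc7 and Dnajc12 were called in no comparison.

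**Figure D4:**
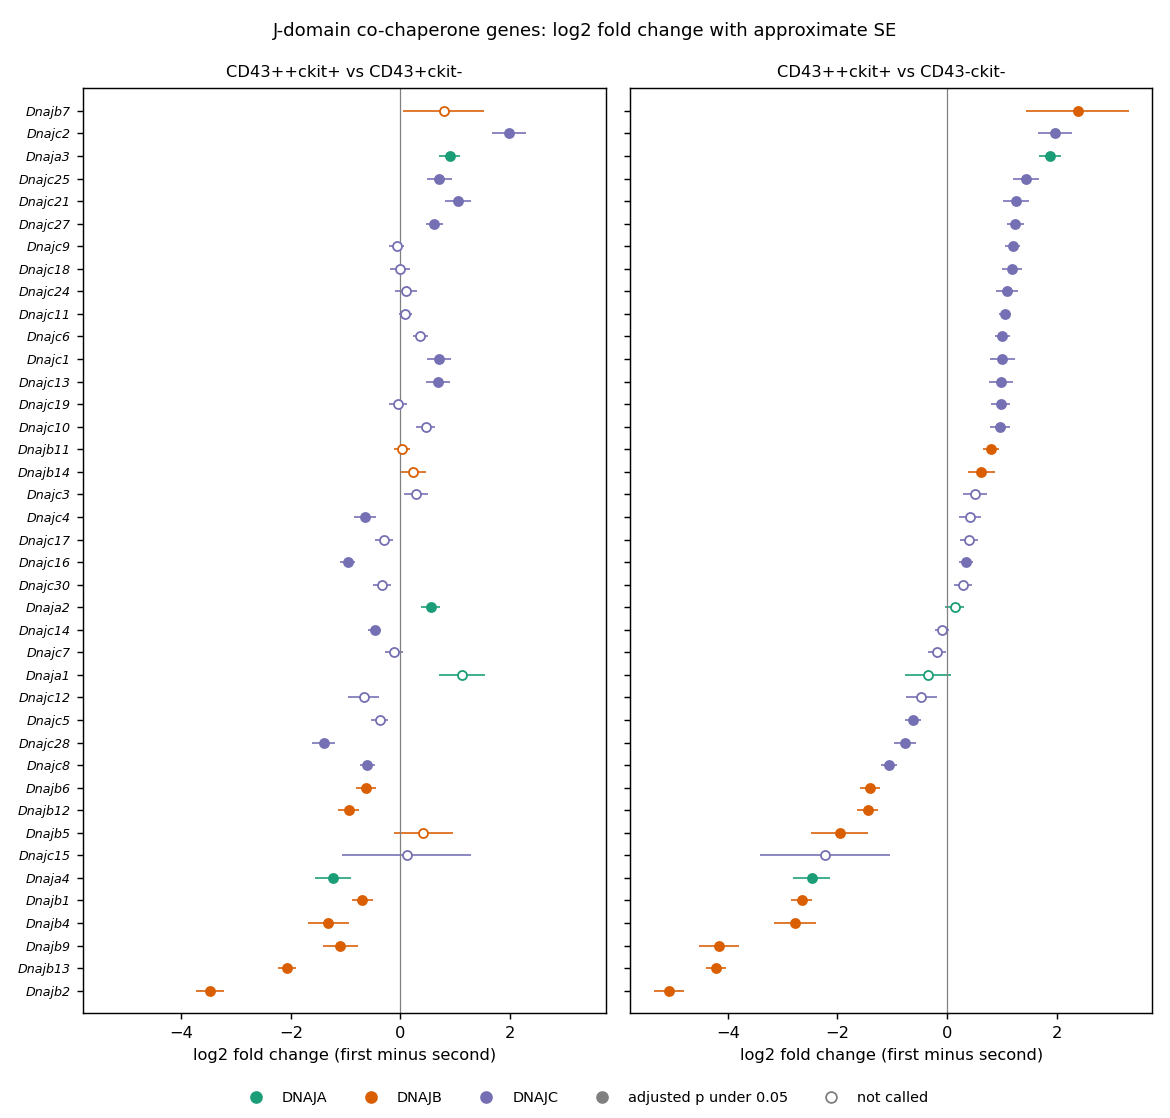
Log2 fold change with its SE for each tested J-domain gene, for CD43++ckit+ versus CD43+ckit- cells (left) and CD43++ckit+ cells versus CD43-ckit- cells (right), by family; filled points passed an adjusted p under 0.05. Dnajb2, Dnajb13 and Dnajb9 lie farthest to the left against CD43-ckit- cells, at -5.08, -4.21 and -4.16. In the same panel most family C points lie to the right of 0.

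Small heat shock proteins, which hold unfolded proteins without ATP, were scarce. Hspb6 and Hspb9 were the tested ones, while Hspb1, Hspb2, Hspb3, Hspb7 and Hspb8 had at most 0.287 CPM in any library. Hspb6 had 6.37, 6.70 and 9.56 CPM in CD43++ckit+ cells, 16.8, 16.8 and 16.9 CPM in CD43+ckit- cells and 15.5, 19.5 and 16.9 CPM in CD43-ckit- cells. It was lower in CD43++ckit+ cells than in both others (-1.16, SE 0.19, adjusted p = 0.00165, and -1.20, SE 0.19, adjusted p = 0.000503). With scaling by library totals the second was not called (-0.28, adjusted p = 0.326). Hspb9 was called in no comparison.

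The rule also took 3 genes whose symbols begin with Hspb but which are not small heat shock proteins. Hspbap1, named for its binding to HSPB1, had 9.37, 9.33 and 9.56 CPM in CD43++ckit+ cells, 23.3, 22.8 and 22.6 CPM in CD43+ckit- cells and 28.1, 17.9 and 17.2 CPM in CD43-ckit- cells. It was lower in CD43++ckit+ cells than in both others (-1.28, SE 0.19, adjusted p = 0.00119, and -1.16, SE 0.19, adjusted p = 0.000685). The second call was not made with scaling by library totals (-0.21, adjusted p = 0.233). Hspbp1, a nucleotide exchange factor of HSP70, had 72.7, 67.3 and 72.3 CPM in CD43++ckit+ cells, 51.4, 61.8 and 53.8 CPM in CD43+ckit- cells and 19.4, 27.6 and 30.7 CPM in CD43-ckit- cells, and was higher in both CD43-positive populations than in CD43-ckit- cells (1.45 and 1.10, adjusted p = 0.000113 and 0.00098). Hspb11, an intraflagellar transport protein, was higher in CD43++ckit+ cells than in CD43-ckit- cells (1.04, SE 0.33, adjusted p = 0.0202), a call not made when CD43++ckit+ replicate 1 was left out (adjusted p up to 0.062). Cct6b, a testis form of Cct6a with at most 1.14 CPM, was called between CD43+ckit- cells and CD43-ckit- cells alone (1.87, SE 0.40, adjusted p = 0.00483).

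Of 23 cytosolic co-chaperones and heat shock factors, 9 were higher and 3 lower in CD43++ckit+ cells than in CD43+ckit- cells, and 10 were higher and 5 lower than in CD43-ckit- cells. In percent, the list had 39.1% higher and 13.0% lower, beside 19.7% and 20.1% of all tested genes, for the first of these and 43.5% higher and 21.7% lower, beside 39.7% and 27.7% of all tested genes, for the second, where 65.2% of the list and 67.4% of all tested genes were called. Hsf1, the gene of heat shock factor 1, averaged 64.2 ± 5.68 CPM in CD43++ckit+ cells, 44.0 ± 2.91 CPM in CD43+ckit- cells and 21.2 ± 5.40 CPM in CD43-ckit- cells (SD, n = 3 each), and differed between the first and the last (1.60, SE 0.19, adjusted p = 0.000112 for CD43++ckit+ versus CD43-ckit- cells). Fkbp4, an HSP90 co-chaperone, and St13, which stabilises HSP70 with its client, were higher in CD43++ckit+ cells than in CD43+ckit- cells (1.27 and 1.46, adjusted p = 0.00143 and 0.00187). Among the lower ones, Unc45a and Bag1 were lower in CD43++ckit+ cells than in CD43-ckit- cells (-1.83 and -1.50, adjusted p = 8.13e-05 and 0.000147). Hsf2, another heat shock factor, was also lower there (-3.50, adjusted p = 0.0052), with at most 2.73 CPM in any library.

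The libraries of CD43++ckit+ cells and CD43+ckit- cells did not overlap for 47 of the 71 tested members, 26 above and 21 below, or 66.2%, beside 55.5% of all tested genes. Those of CD43++ckit+ cells and CD43-ckit- cells did not overlap for 58 (81.7%), beside 73.2%, and those of CD43+ckit- cells and CD43-ckit- cells for 49 (69.0%), beside 64.3%. Of the calls, 21 of 41, 43 of 53 and 31 of 42 in these comparisons were kept with each library left out in turn. The share of all called genes kept in this way was not computed. Without CD43++ckit+ library 1 the first comparison gave 25 calls, and without CD43++ckit+ library 2 also 25. All tested genes lost calls too, from 5005 of 12573 to 3493 of 12799 and 3582 of 12789. Without CD43+ckit- library 2 the comparison gave 17 members higher in CD43++ckit+ cells, beside 1955 of all 12854 tested genes. The fits to CD43+ckit- and CD43-ckit- cells alone gave 28 members higher and 22 lower in CD43+ckit- cells with the replicate number as a block, and 23 higher and 19 lower without it. With DESeq2, 10 calls were not made and 16 were gained. The calls not made were those of Cct4, Dnajb14, Dnajb7, Dnajc16 and Hspb11 for CD43++ckit+ versus CD43-ckit- cells, and of Cct6a, Cct8, Dnajc10, Dnajc14 and Dnajc25 for CD43+ckit- versus CD43-ckit- cells.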

How the data were processed

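TRIzol-extracted total RNA of sorted cells went into libraries made with an Illumina TruSeq RNA kit, per the labels' protocols. The authors deposited whole-number counts by gene symbol in 1 table of 9 libraries, not normalized. The submitters' processing notes list CASAVA 1.8, TopHat2 2.0.4, RSEM, HTSeq and edgeR with no role for any, and the design text adds BWA and Cufflinks. Since these notes name a human build for mouse symbols, the genome build behind the counts is taken as not given in the sources used here. The same holds for strand handling, read length and reads that match several genes.

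edgeR 4.0.16 (R 4.3.3) was used for all tests. filterByExpr (minimum count 10, minimum total count 15) left 12573 genes, scaled by TMM. The model had 1 mean per population over all 9 libraries (estimateDisp, glmQLFit with robust estimation, glmQLFTest). Benjamini-Hochberg adjustment ran over all tested genes of a comparison. The approximate SE of a log2 fold change is |log2 fold change| / √F. CPM values are TMM-scaled. Within each population, counts of every pair of libraries differed by more than sampling noise. On simulated counts with known changes for CD43++ckit+ versus CD43+ckit-, over 12427 genes, 70 of 100 genes changed 2-fold and 99 of 100 changed 4-fold were recovered. The simulation gave every gene the same dispersion and had no outlying library. These rates therefore do not measure the power for genes that vary widely between the real libraries, such as Hspa1b.

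Replicate numbers recur in each population. Over genes, CD43+ckit- and CD43-ckit- libraries of the same number deviated together from their population means (correlations 0.525, 0.366 and 0.303, each above the floor of 0.1). Only the alternative fits with the block treated the numbers as pairing libraries. The main fit had no block. Unlike numbers also correlated, at 0.343 for CD43+ckit- library 2 with CD43-ckit- library 3 and 0.349 for CD43+ckit- library 3 with CD43-ckit- library 2. The correlations therefore do not show that the numbers pair libraries 2 and 3, and every fit with the block assumes it. Replicate numbers come from the labels, which do not say what they stand for. Alternatives were library totals, DESeq2 size factors, DESeq2 1.42.0, no low-count filter and a stricter one (average count 50), fits to 2 populations, the replicate block, and each library left out.

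The members, their families, the partner lists and the markers were chosen with earlier results of these data known. The rule for named genes took every CCT ring, mitochondrial chaperonin, HSP90, HSP70 and HSP110 member with counts, the 8 largest fold changes each way among called J-domain and small heat shock members, and the 4 smallest adjusted p in each partner list. The text draws on these, and names further members to account for the families. Promoter sequences and the windows searched are from RefSeq (GRCm38.p6). The uniqueness of 50-base words and the exon bases shared with other genes were computed on GENCODE transcripts and describe what a read of that length could tell apart.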

Additional observations from a re-analysis of the deposited data

How the results depend on the processing

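With library totals in place of TMM the count of lower members fell to 8 for CD43++ckit+ versus CD43-ckit- (16 with TMM) and to 8 for CD43+ckit- versus CD43-ckit- (14 with TMM). Log2 fold changes then turned positive for Cct7 (0.67), Dnajc14 (0.84), Dnajc28 (0.17), Dnajc5 (0.31), Dnajc7 (0.74), Hsp90ab1 (0.66) and Hspa4 (0.38) in the first of these, and for Cct4 (0.45), Cct7 (0.19), Dnajc5 (0.43), Dnajc7 (0.59) and Dnajc8 (0.21) in the second. No called member turned sign with DESeq2, DESeq2 size factors, either low-count filter, or fits to 2 populations. With each library left out in turn, called members numbered 25 to 45 (14 to 29 higher, 10 to 16 lower) for CD43++ckit+ versus CD43+ckit-, 46 to 53 (30 to 38 higher, 14 to 17 lower) versus CD43-ckit-, 32 to 47 (22 to 29 higher, 10 to 18 lower) for CD43+ckit- versus CD43-ckit-, and 53 to 67 in the joint test. Over all genes, 3493 to 5919, 7366 to 9534 and 5080 to 7800 were called in the 3 comparisons, of 12771 to 12858 tested. Dnajc15 ranged from -3.91 (without CD43++ckit+ replicate 3) to 0.69 for CD43++ckit+ versus CD43+ckit-. An alternative chosen after seeing the data dropped replicate 3 of CD43++ckit+ and replicate 1 of both other populations, each the least correlated with its partners. It gave 22 lower members for CD43+ckit- versus CD43-ckit-, -4.19 for Dnajc15 in CD43++ckit+ versus CD43+ckit-, and 0.40 for Dnaja1 in CD43++ckit+ versus CD43-ckit-. With the replicate block in CD43+ckit- and CD43-ckit-, 28 members were higher and 22 lower, and the same 2 populations without the block gave 23 and 19. Between CD43++ckit+ and CD43+ckit-, libraries 1, 2 and 3 had correlations of 0.447, -0.617 and 0.382 with the library of the same number. Between CD43++ckit+ and CD43-ckit- these were 0.262, -0.318 and 0.252. Such mixed signs do not settle whether the numbers pair these libraries. The cause of the changes in calls between settings was not tested. Where nothing says that libraries are separate animals, the spread behind each p may be technical, and members with few counts, such as Dnajc15, rest on single libraries.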
